A study of Mus musculus with 15 samples.

Results

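The serpins are a family of proteins that share one fold and, for the most part, inhibit serine proteases. Their rows were taken from the deposited expression table by symbol, as every row that starts with Serpin, a clade letter from a to i and a number. There were 63 such rows, and 32 of them had 1 FPKM (fragments per kilobase of transcript, scaled to library depth, a level per length) or more in at least 3 of 15 libraries. These 32 genes are described here, among 13757 genes that passed the same filter. No values of a comparison were used to choose them, but a gene that passed only through the tissue where it is high had to differ between tissues.

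The libraries were made from whole liver, duodenum, jejunum, ileum and large intestine (colon) of male wild-type C57BL/6 mice that were 2 to 3 months old. Each tissue has 3 libraries. Livers were taken without the gallbladder and the gut was emptied by flushing, per the labels' protocols. No treatment or altered allele is given for any group. A library is called here by its tissue and title number. Whether those of one tissue came from different animals is not said in the labels, so a p-value covers only sample-to-sample spread, which can be technical. The libraries labelled jejunum 24 and ileum 24 stand apart from those that share their labels, and duodenum 24, duodenum 28 and large intestine 25 hold more albumin transcript than the other intestinal libraries, so results that rest on them are also given without them.

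An inhibitory serpin offers a reactive loop to its protease, is cut there, changes shape and traps the enzyme in a covalent complex. The family is divided into clades: clade a holds secreted plasma proteins such as alpha-1-antitrypsin, clade b holds proteins that mostly stay inside cells, and clades c to i hold antithrombin and other regulators of coagulation, fibrinolysis, complement and the matrix. Some members do not inhibit proteases: corticosteroid-binding globulin and thyroxine-binding globulin carry hormones, and Serpinh1 (Hsp47) is a chaperone of collagen in the endoplasmic reticulum. The liver is the main source of the plasma serpins, and the gut epithelium meets proteases from the pancreas and from leukocytes.

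The 5 expressed alpha-1-antitrypsin genes of the mouse, Serpina1a to Serpina1e, are near-identical copies on the minus strand of chromosome 12 (mm10). Their reactive loops are shown because the loop is the part of the protein that meets the protease. Each line gives the 60 coding bases from the hinge of the loop onwards, with the codons on both sides of the bond that a protease cuts, bases 43 to 48, in capitals. The sequences were read from GENCODE M21 transcripts.
Serpina1a: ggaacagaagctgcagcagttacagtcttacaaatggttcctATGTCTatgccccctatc
Serpina1b: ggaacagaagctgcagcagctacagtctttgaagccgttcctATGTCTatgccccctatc
Serpina1c: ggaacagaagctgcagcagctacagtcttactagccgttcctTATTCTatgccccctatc
Serpina1d: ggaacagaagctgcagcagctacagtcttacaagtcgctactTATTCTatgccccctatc
Serpina1e: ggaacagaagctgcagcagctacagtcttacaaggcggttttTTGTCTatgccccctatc
The capitalised codon pair took 3 forms: Serpina1a shared its pair with Serpina1b, Serpina1c shared its pair with Serpina1d, and Serpina1e had its own. Over the 10 pairs of genes, the loops differed at 4 to 8 of 60 bases (86.7% to 93.3% identity), while the aligned coding sequences were 96.3% to 98.5% identical. How the authors' counting divided reads between these copies is uncertain, so values of single copies are given together with their sum.

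The expressed members lay mostly in clusters. Clade a had 24 of its 25 rows on chromosome 12 between 103616675 and 104414329, a span of 798 kb, and 17 of these passed the filter, with Serpina7 on chromosome X as the other. Clade b had 12 rows on chromosome 1 (106861180 to 107608978), of which Serpinb5 passed, and 15 rows on chromosome 13 (32842092 to 34002794), of which 5 passed. Of all rows, 18 of 25 passed in clade a, 6 of 27 in clade b, 1 of 1 in each of clades c, d, g and h, 1 of 3 in clade e, 2 of 2 in clade f and 1 of 2 in clade i. Of the 31 rows that failed, 7 were listed at 0 in every library and 19, these included, stayed below 0.1 FPKM in all of them. Of the members, 9 reached 1 FPKM in the 3 liver libraries alone and so passed only through liver. Serpina3f and Serpina9 also needed liver to pass, since in the gut only jejunum 27 (1.29) and large intestine 24 (1.55) reached it, respectively. Serpinb1b, Serpinb5 and Serpini1 stayed below 1 FPKM in every liver library and passed only through the gut. Serpinb1a, below it in liver 26, needed the gut too. The lowest levels just inside the limit were those of Serpina9, with 1 FPKM or more in 4 libraries, and Serpini1, with 5. Just outside it was Serpinb8, at 1.24 FPKM in liver 26 and 1.01 in jejunum 24.

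**Figure D1:**
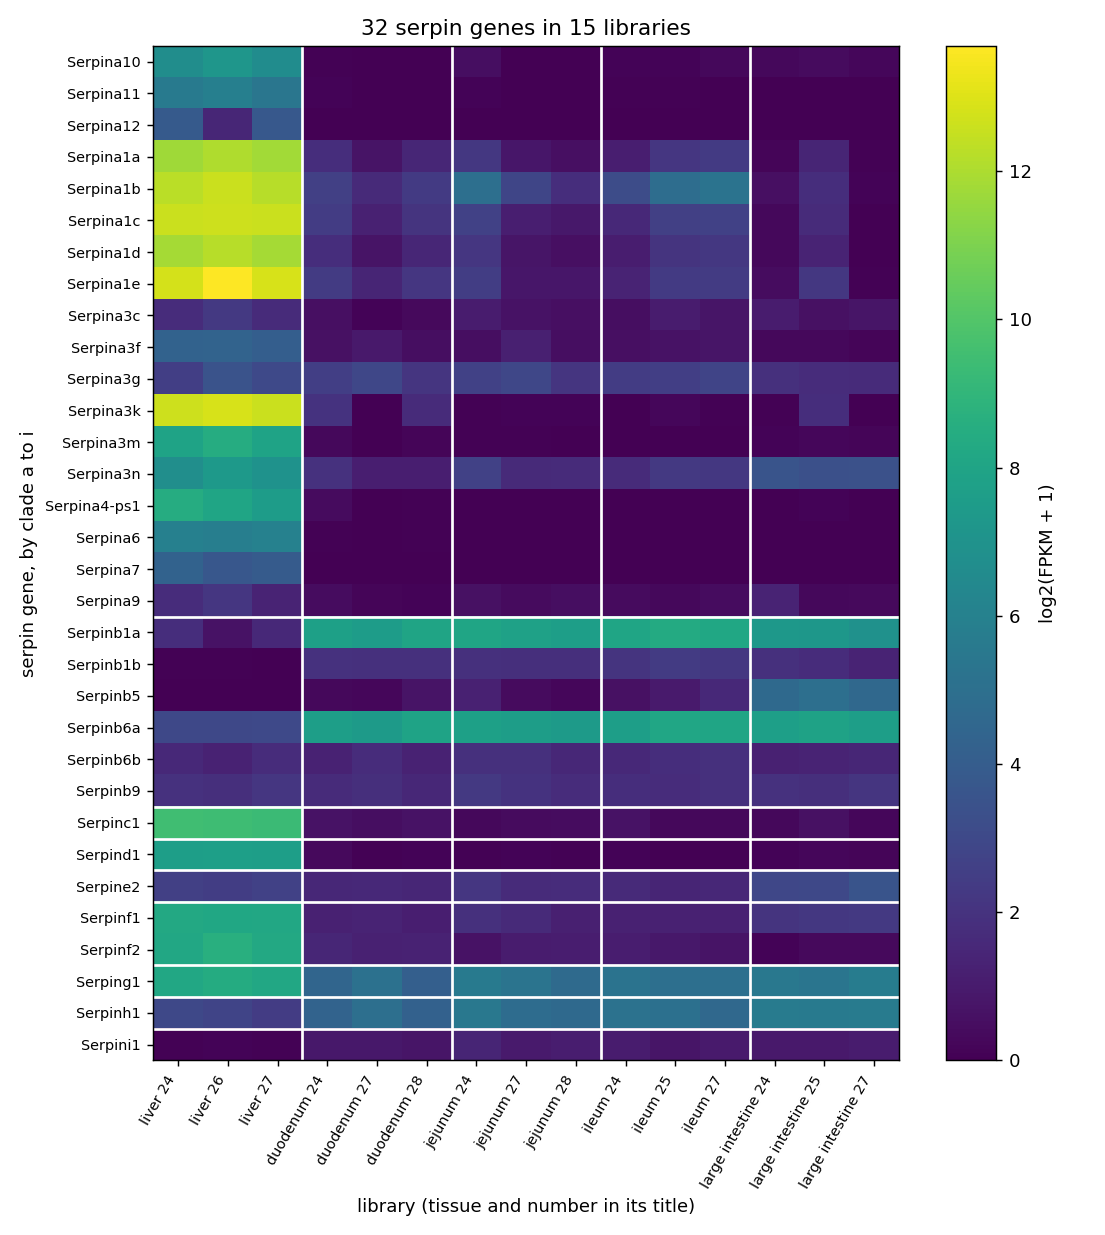
Colour gives log2(FPKM + 1) of each of 32 serpin genes (rows, by clade) in each of 15 libraries (columns, by tissue and the number in the title). Clade a and clades c, d, f and g are bright in the 3 liver columns, whereas Serpinb1a and Serpinb6a are bright in the 12 intestinal columns.

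The liver made a far larger amount of serpin transcript than the gut, and a different set. The 32 genes together held 6.42%, 8.69% and 6.52% of all FPKM in liver 24, 26 and 27, against 0.0897% to 0.14% in the 12 intestinal libraries. Clade a summed to 32648, 43169 and 32508 FPKM in liver and to 12 to 65.4 in the intestinal libraries. Clade b ran the other way, with 14.2, 11.6 and 15 FPKM in liver and 354 to 621 in the intestinal libraries. The highest mean lay in liver for 23 of 32 members, including all 18 of clade a, and in an intestinal section for the other 9. The 3 liver libraries were all above the 12 intestinal ones for 22 members, all below them for 6, and overlapped them for 4. The 9 members that reached 1 FPKM in liver alone are in the 23 and in the 22 by selection, and Serpina3f and Serpina9 partly so. Likewise Serpinb1a, Serpinb1b, Serpinb5 and Serpini1, which needed the gut to pass, are partly by selection among the 9 and the 6 on the gut side. In bulk tissue, fewer cells of a type and less RNA per cell cannot be told apart.

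**Figure D2:**
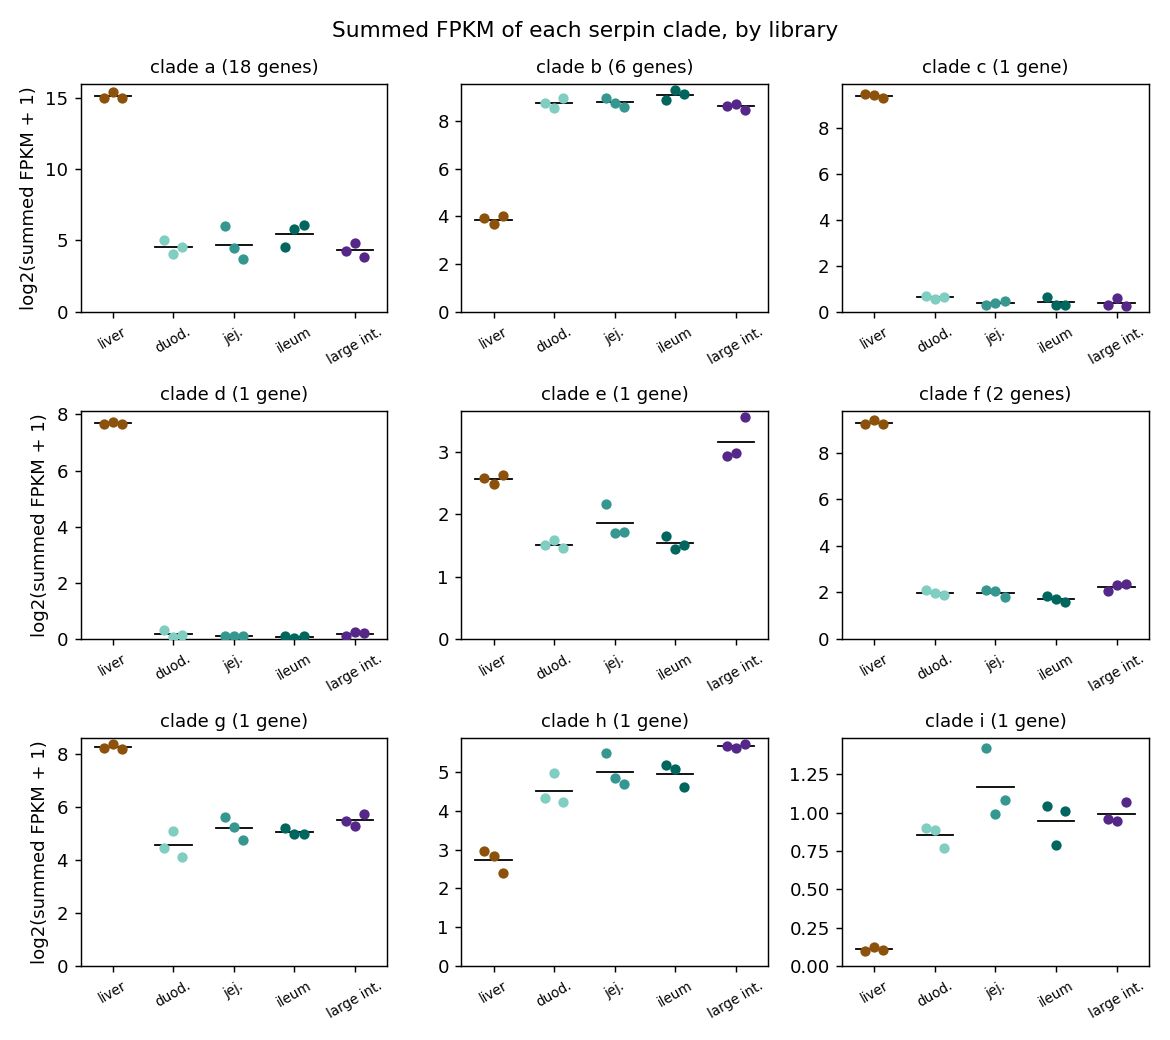
Each panel shows the summed FPKM of the passing members of a clade as log2(sum + 1), with a point for each library and a line at the mean of the log values of the 3 libraries of a tissue. Clade a stands at 32508 FPKM or more in liver and at 65.4 or less elsewhere, and clade b at 354 or more in every intestinal library and at 15 or less in liver.

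Each section was compared with liver in limma on log2(FPKM + 1), and a gene was called where its Benjamini-Hochberg adjusted p was under 0.05 and its log2 difference at least 1 in size. In duodenum, 4 serpin genes were higher and 23 lower than in liver, where 30.6% of all tested genes were called higher and 9.19% lower. In jejunum, 5 were higher and 22 lower (36.9% and 8.94% of all genes), in ileum 5 and 23 (34.3% and 9.24%), and in large intestine 5 and 23 (41.8% and 8.99%). The median log2 difference of the 32 genes was -4.78, -4.50, -4.48 and -3.97 in these sections, against 0.58, 0.73, 0.68 and 0.83 for all genes. All 4 comparisons use the same 3 liver libraries. The counts and medians of serpin genes include the 9 members that reached 1 FPKM in liver alone, which had to be lower in the gut. They also include Serpina3f and Serpina9, which needed liver to pass, and Serpinb1a, Serpinb1b, Serpinb5 and Serpini1, which needed the gut. The size of these medians for all genes rests on the scale: with median-of-ratios scaling they were 0.03, 0.03, 0.03 and 0.02.

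Among the alpha-1-antitrypsin genes, Serpina1e, which encodes a copy with its own cleavage codons, had the highest liver level. Serpina1e stood at 7172, 13201 and 7419 FPKM in liver 24, 26 and 27, so liver 26 was well above the other two libraries. Serpina1c stood at 6106, 6350 and 6069 FPKM, and Serpina1b at 4944, 6166 and 4847. Serpina1d and Serpina1a had mean liver levels of 4018 ± 576 and 3746 ± 427 FPKM (SD, n = 3). None of the 5 copies exceeded 36.5 FPKM in any intestinal library. Their differences from liver lay between -7.93 (Serpina1b in ileum, SE 0.77, limma adjusted p = 1.53e-06) and -12.21 on the log2 scale (Serpina1e in large intestine, SE 0.61, limma adjusted p = 2e-09).

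The Serpina3 genes, the mouse counterparts of alpha-1-antichymotrypsin, split by copy. Serpina3k, the most abundant of them, stood at 6297, 7439 and 6141 FPKM in the liver libraries and reached 3.02 at most in the gut. In jejunum it was at 0.0392, 0.0813 and 0.101 FPKM, with a log2 difference from liver of -12.59 (SE 0.51, limma adjusted p = 2.33e-10), the largest drop of any member in duodenum, jejunum and ileum. Serpina3m stood at 240.1, 354 and 241 FPKM in liver and at 0.217 or less in every intestinal library. Serpina3f, at 18.8, 19.2 and 16.3 FPKM in liver, reached 1.29 at most in the gut and was lower in all 4 sections (log2 differences -3.51 to -3.99). Its record overlaps that of Serpina3g, with which it shares a start, so how reads were divided between them is uncertain. Serpina3g itself was present everywhere, at 4.90, 10.2 and 7.14 FPKM in liver and 2.25 to 6.48 in the gut, and was called lower in large intestine only (-1.25, SE 0.25, limma adjusted p = 0.000345), a call lost when libraries are rescaled to the same sum (-0.91). With median-of-ratios scaling Serpina3g was also called lower in duodenum (-1.20), jejunum (-1.30) and ileum (-1.21). Serpina3n, described below, kept more of its liver level in the gut than Serpina3k and Serpina3m did, and less than Serpina3g did.

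The hormone carriers, Serpina10, Serpina11, Serpina12 and Serpina4-ps1 stood at 0.443 FPKM or less in every intestinal library. Serpina6, corticosteroid-binding globulin, stood at 60.3, 57.7 and 63.4 FPKM in liver and at 0.062 or less in every intestinal library, with log2 differences from -5.89 to -5.94 (SE 0.07). Serpina7, thyroxine-binding globulin, stood at 19, 12 and 14.2 FPKM in liver and at 0.0335 or less elsewhere. Serpina10, the protein Z-dependent inhibitor of coagulation factor X, stood at 102, 145 and 99.3 FPKM in liver and at 0.443 or less in the gut. Serpina11 (47.9, 59.1 and 41.1 FPKM in liver) and Serpina4-ps1 (358, 267 and 187) followed the same pattern. GENCODE M21 lists Serpina4-ps1 as an unprocessed pseudogene, and it is counted here with the other members. Serpina12 (vaspin) was at 13.7 and 12.9 FPKM in liver 24 and 27 but at 1.73 in liver 26, and at 0.0311 or less in the gut. Serpina3c and Serpina9 were low in liver too, at 1.56 to 3.77 FPKM, and reached 1.09 and 1.55 FPKM in the gut. Both were lower in all 4 sections, with log2 differences of -1.07 to -1.55, close to the threshold. The Serpina9 call in large intestine (-1.10) was lost without liver 26 (-0.90), without large intestine 25 (-0.92), without large intestine 27 (-0.94), with the same-sum scaling (-0.91) and with a replicate block (-0.79). The Serpina3c calls in jejunum, ileum and large intestine were lost without liver 26 (-0.94, -0.94 and -0.89) and with a replicate block (-0.89, -0.95 and -0.90). Those of Serpina3c in ileum and in large intestine were also lost without ileum 24 (-0.997) and without large intestine 25 (-0.97), and that in large intestine with the same-sum scaling (-0.84).

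Promoter windows from RefSeq (GRCm38.p6, 250 bases before to 50 after the annotated start) were available for 24 of 32 members, and those of Serpina1b and Serpina1e are printed because these genes had the highest mean of the 5 copies in the small intestine sections and in liver, respectively. Capitals mark the letters GTTAAT, the core of the element bound by HNF1, a transcription factor of both liver and gut epithelium.
Serpina1b (chr12:103738140-103738439, minus strand): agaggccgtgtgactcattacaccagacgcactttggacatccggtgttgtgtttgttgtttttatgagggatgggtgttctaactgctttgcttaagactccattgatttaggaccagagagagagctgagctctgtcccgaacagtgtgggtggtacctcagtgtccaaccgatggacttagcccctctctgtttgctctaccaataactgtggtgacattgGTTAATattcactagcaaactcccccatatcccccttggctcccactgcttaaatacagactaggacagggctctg
Serpina1e (chr12:103956848-103957147, minus strand): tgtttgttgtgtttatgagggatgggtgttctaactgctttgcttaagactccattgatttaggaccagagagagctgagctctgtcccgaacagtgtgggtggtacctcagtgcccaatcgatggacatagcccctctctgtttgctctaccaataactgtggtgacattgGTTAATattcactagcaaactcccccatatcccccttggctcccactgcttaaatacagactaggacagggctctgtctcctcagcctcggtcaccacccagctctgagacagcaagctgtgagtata
GTTAAT, searched on both strands, was found in the window of all 5 Serpina1 copies and of Serpina3c and Serpina7, 7 of 24 members, and in 7.1% of 32817 promoter windows of all genes. It began at positions -21, -26, -27 and -16 from the annotated start in Serpina1a, Serpina1b, Serpina1c and Serpina1d, and at -78 in Serpina1e. TTTATG, a core of sites for the gut factor Cdx2, was found on either strand in the 5 Serpina1 copies and in Serpina3n, and in 11.9% of all windows. TATAAA on the gene's strand was found in Serpina3c and Serpina7 (8.32% of all windows) and CAAAGTC, part of an HNF4 site, on either strand in Serpinh1 (4.44%). No site of these 4 motifs overlapped a site of another in the members' windows.

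The serpins of coagulation, fibrinolysis and complement were also highest in liver. Serpinc1 (antithrombin, the inhibitor of thrombin and factor Xa) stood at 707, 695 and 636 FPKM in liver and at 0.172 to 0.604 in the gut, a log2 difference of -8.79 to -9.04 (SE 0.12). Serpind1 (heparin cofactor II) stood at 201, 213 and 202 FPKM in liver and at 0.251 or less in the gut, with log2 differences of -7.50 to -7.61 (SE 0.08). Serpinf2 (alpha-2-antiplasmin, the inhibitor of plasmin) stood at 295, 393 and 309 FPKM and Serpinf1 (PEDF, a non-inhibitory secreted factor) at 307, 286 and 290 in liver. In the gut Serpinf2 lay between 0.108 and 1.81 FPKM and Serpinf1 between 1.21 and 3.79. Serping1, the C1 inhibitor of the classical complement and contact pathways, kept a higher level in the gut. It stood at 299, 339 and 298 FPKM in liver, 21.1, 33.1 and 16.5 in duodenum, and 48.2, 37.5 and 25.9 in jejunum. In ileum it stood at 35.8, 30.5 and 31.1 FPKM, and in large intestine at 43.5, 38.5 and 52.8. The liver libraries did not overlap any section, and the log2 differences were -3.73, -3.08, -3.23 and -2.78 (SE 0.24, limma adjusted p 2.11e-08 in ileum).

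The proteases that these inhibitors act on were compared from lists. The counts are to be set beside the shares of all tested genes. These were 30.6%, 36.9%, 34.3% and 41.8% higher in duodenum, jejunum, ileum and large intestine, and 8.94% to 9.24% lower. Of 11 coagulation and fibrinolysis proteases, 9 were lower and 2 higher in each section than in liver. Plg (plasminogen) stood at 652 ± 22.5 FPKM (SD, n = 3) in liver, with log2 differences of -9.08 to -9.27, and F2 (prothrombin) at 628 ± 39.9. The 2 higher genes were the plasminogen activators Plat and Plau. All 5 tested complement proteases were lower in every section, with Masp2 showing the largest difference (-7.06 to -7.13). Of 10 partners and receptors of serpins, Lrp1, Proz and Vtn were lower in all 4 sections and 3, 4, 5 and 5 genes were higher. Vtn (vitronectin), the highest of them in liver, stood at 904 ± 98.4 FPKM there and differed by -8.77 to -9.15. Proz, protein Z, the cofactor of Serpina10, stood at 106 ± 4.34 FPKM in liver, and its log2 differences were -3.37, -4.06, -3.90 and -6.37 in duodenum, jejunum, ileum and large intestine.

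Protease inhibitors outside the serpin family were likewise often lower in the gut than in liver. Of 23 tested, 11 were lower in each section than in liver and 5, 7, 6 and 9 were higher in duodenum, jejunum, ileum and large intestine. Among all genes, 8.94% to 9.24% were lower, and 30.6%, 36.9%, 34.3% and 41.8% were higher in these sections. The higher inhibitors were thus no larger a share than among all genes. Ahsg (fetuin-A) led liver at 4487 ± 1162 FPKM (SD, n = 3), with log2 differences of -11.04 to -12.08. Spink4, a Kazal-type inhibitor of goblet cells, led the gut at 1001 ± 190 FPKM in duodenum and 2044 ± 893 in large intestine, against 0.193 ± 0.021 in liver. Of 10 genes of hormone carriage and angiotensin, 4 were lower in every section, including Agt, the serpin-fold angiotensinogen whose symbol keeps it out of the family rows, and 3, 4, 4 and 2 were higher. Ttr, a thyroxine carrier, had the largest difference in every section (-8.15 to -9.54), and Ace, the angiotensin-converting enzyme, was higher in all 4 sections (2.58 to 8.01).

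A small set of serpins was higher in the gut. Serpinb1a, an inhibitor of neutrophil serine proteases, was the highest serpin gene of the small intestine. It stood at 2.42, 0.561 and 2.03 FPKM in liver, 222, 189 and 252 in duodenum, and 263, 229 and 204 in jejunum. In ileum it stood at 260, 335 and 279 FPKM, and in large intestine at 156, 150 and 122. Every intestinal library was far above every liver library, and the 3 large intestine libraries were below the other 9 intestinal ones. The log2 differences from liver were 6.45, 6.52, 6.85 and 5.82 (SE 0.24, limma adjusted p 6.47e-12 in ileum).

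Serpinb6a, an intracellular inhibitor of trypsin-like proteases and of cathepsin G, was nearly as high and more even along the gut. It stood at 6.86, 6.92 and 7.04 FPKM in liver, 200, 176 and 242 in duodenum, and 223, 197 and 174 in jejunum. In ileum it stood at 207, 275 and 263 FPKM, and in large intestine at 210, 233 and 202. The ranges of the 4 sections overlapped, and each lay above liver by 4.69, 4.64, 4.96 and 4.76 on the log2 scale (SE 0.14, limma adjusted p 4.31e-13 in ileum). These 2 genes made up 91.2% to 98.6% of clade b FPKM in the 12 intestinal libraries, lowest in large intestine, and 60.4% to 65.1% in liver.

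The near-copies of these genes were much lower. Serpinb1b stood at 0.0267 to 0.0564 FPKM in liver and 1.56 to 4.26 in the gut and was higher in all 4 sections (log2 differences 1.85, 1.80, 2.16 and 1.59), and its coding sequence was 90.6% identical to that of Serpinb1a. The large intestine call of Serpinb1b was lost with quantile normalization (0.71). Serpinb6b, 86.4% identical to Serpinb6a, stood at 1.44 to 2.35 FPKM in liver and 1.36 to 2.79 in the gut, and Serpinb9, an inhibitor of granzyme B, at 2.64 to 3.57 and 1.87 to 3.87. Neither of these passed the test in any section: the log2 differences were -0.19 to 0.23 (SE 0.15) for Serpinb6b and -0.32 to 0.00 (SE 0.14) for Serpinb9. The liver libraries lay within the intestinal range for both genes. With quantile normalization both were called lower in large intestine (-1.21 and -1.04).

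**Figure D3:**
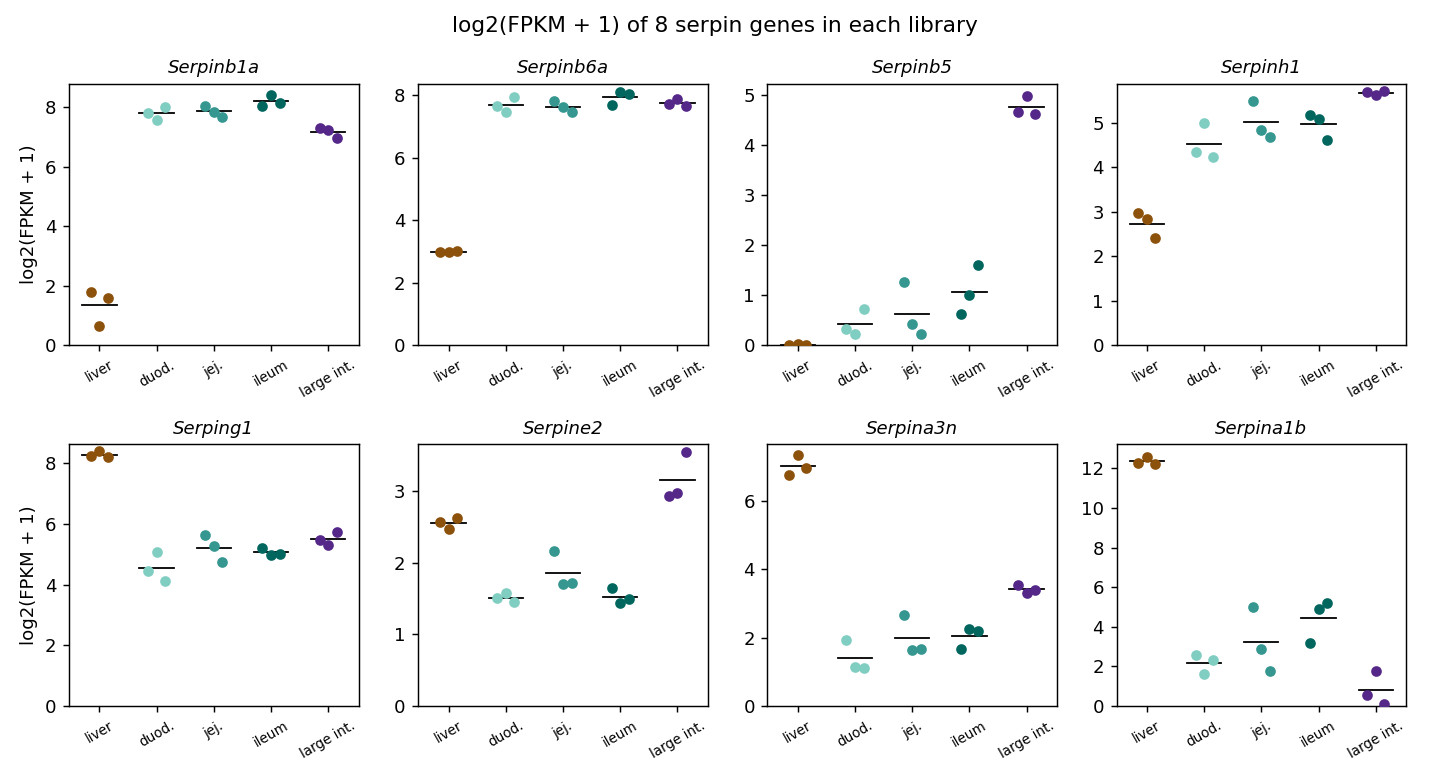
Each panel shows log2(FPKM + 1) of a serpin gene in each library by tissue, with a line at the mean of the log values of 3 libraries. Serpinb1a and Serpinb6a lie at 122 and 174 FPKM or more in every intestinal library, Serpinb5 reaches 23.7 FPKM or more only in large intestine, and Serpina1b spreads from 2.42 to 36.5 FPKM within jejunum and ileum.

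Serpinh1, the collagen chaperone Hsp47, was higher in every section than in liver. It stood at 6.80, 6.10 and 4.30 FPKM in liver, 19.1, 30.6 and 17.9 in duodenum, and 43.9, 27.7 and 24.7 in jejunum. In ileum it stood at 35.2, 32.7 and 23.6 FPKM, and in large intestine at 50.2, 48.1 and 51.4. Large intestine was above all other libraries, and liver below all of them, with log2 differences of 1.78, 2.27, 2.23 and 2.94 (SE 0.24, limma adjusted p = 6.06e-08 in large intestine). Of all genes, 30.6%, 36.9%, 34.3% and 41.8% were higher than liver in duodenum, jejunum, ileum and large intestine, and 8.94% to 9.24% lower. Of 12 collagen genes and collagen chaperones, 8, 9, 9 and 10 were higher in these sections and 0 lower. Scaling by median of ratios left 4 higher and 1 lower in duodenum, 4 and 0 in ileum, and 6 and 0 in jejunum, while Serpinh1 kept its 4 calls under every scaling. Col3a1 stood at 4.75 ± 1.26 FPKM in liver and 115 ± 13.7 (SD, n = 3) in large intestine, and P4hb, the most abundant of the list, at 411 ± 23.9 and 277 ± 17.9. The 5 fibroblast markers, of which Col1a1 and Col3a1 are also in the collagen list, summed to 61.7 to 79.9 FPKM in liver, 61.4 to 109 in duodenum and 238 to 325 in large intestine. Their part in the Serpinh1 difference was not tested.

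Serpini1 (neuroserpin, an inhibitor of tissue plasminogen activator) was low everywhere, at 0.0706 to 0.0918 FPKM in liver and 0.705 to 1.68 in the gut. It was called higher in jejunum (1.06, SE 0.11, limma adjusted p = 6.06e-07), and the call was lost without jejunum 24 (0.93), with quantile normalization (0.18) and with median-of-ratios scaling (0.87). The log2 differences in the other sections were 0.74, 0.84 and 0.88, under the threshold for size. The 5 enteric neuron markers summed to at most 0.129 FPKM in liver and to 9.17 to 30.6 in the gut, and their part was not tested.

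Within the gut, the proximal sections did not differ in any serpin gene at the threshold. For jejunum against duodenum, limma called 0 of 32 members in either direction, with 8 at an unadjusted p under 0.05, where 0.807% of all genes were higher and 0.981% lower. For ileum against jejunum it called 0 members, with 3 at an unadjusted p under 0.05, and 0% of all genes in each direction, with 927 at an unadjusted p under 0.05. A miss of the threshold does not show equal levels. Jejunum 24 and ileum 24 went against their labels in a marker of ileum. Fabp6, the ileal bile acid-binding protein, which was chosen after its values were seen, stood at 6731, 23.1 and 5.61 FPKM in jejunum 24, 27 and 28, and at 255.5, 6597 and 8112 in ileum 24, 25 and 27.

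Serpina1b had the largest log2 difference of any member between ileum and jejunum. It stood at 5.05, 2.10 and 3.93 FPKM in duodenum, 31.4, 6.38 and 2.42 in jejunum 24, 27 and 28, and 8.05, 28.8 and 36.5 in ileum 24, 25 and 27. In large intestine it stood at 0.493, 2.41 and 0.0867 FPKM. The library labelled jejunum 24 lay with ileum 25 and 27, and the library labelled ileum 24 lay near jejunum 27, in the same order as Fabp6. With all libraries, the ileum exceeded the jejunum by 1.21 on the log2 scale (SE 0.77, limma adjusted p = 0.779). Without jejunum 24 and ileum 24, Serpina1b was the 1 member called higher in ileum, by 2.73 (limma adjusted p = 0.024). This fit set ileum 25 and 27 against jejunum 27 and 28 and called 198 of all 13757 genes, against 0 with all libraries. The libraries left out were singled out by expression values and held the Serpina1b values that went against the difference. The p-value is therefore not an independent test.

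The alpha-1-antitrypsin transcript in the gut also had a different make-up from that in liver, most of all in jejunum and ileum. How reads were divided between the copies is uncertain. Serpina1b formed 19.5%, 17.8% and 19.0% of the summed FPKM of the 5 copies in liver 24, 26 and 27. It formed 64.6%, 64.9% and 48.1% in jejunum 24, 27 and 28, and 57.8%, 64.5% and 68.0% in ileum 24, 25 and 27. Serpina1e formed 28.3% to 38.1% of the sum in liver, against 7.61% to 16.0% in jejunum and 7.97% to 11% in ileum. The shares of liver and those of jejunum or ileum did not overlap for either copy. The sum, in which the copy Serpina1f, which failed the filter, is included, was 25375, 34635 and 25556 FPKM in liver, 49.1, 10.1 and 5.13 in jejunum 24, 27 and 28, and 14.3, 45.1 and 54.0 in ileum 24, 25 and 27.

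Albumin (Alb), a transcript of hepatocytes, was set beside these values. Alb stood at 0.0899 to 0.16 FPKM in the jejunum and ileum libraries, and Serpina3k, which was higher than Serpina1b in every liver library, at 0.17 or less there. The ratio of Serpina1b to Alb was 17.2 to 329 in those 6 libraries and 0.195 to 0.212 in liver. In duodenum 24, duodenum 28 and large intestine 25, Alb stood at 15.5, 12.2 and 13.2 FPKM and Serpina3k at 3.02, 2.17 and 2.44. The Serpina1b to Alb ratios of these 3 libraries, 0.325, 0.323 and 0.182, lay nearer to that of liver than those of jejunum and ileum did. Low ratios were not limited to libraries with high Alb: the ratio was 0.734 in large intestine 24 and 0.229 in large intestine 27, where Alb stood at 0.671 and 0.378 FPKM. In duodenum 27, with Alb at 0.504 FPKM, it was 4.17. The list of 6 hepatocyte markers, which includes Alb, did not follow Alb across the gut. Its sum was 130 to 167 FPKM in jejunum and ileum and 22.3 to 45.2 in large intestine. In jejunum and ileum, with Alb at 0.16 FPKM or less, the sum rested on the other markers of the list. It was therefore not taken as a measure of hepatocyte RNA in the gut. In duodenum 24, 27 and 28 it was 212, 170 and 162 FPKM. The part of hepatocyte RNA in the clade a values of duodenum and large intestine was not tested.

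**Figure D4:**
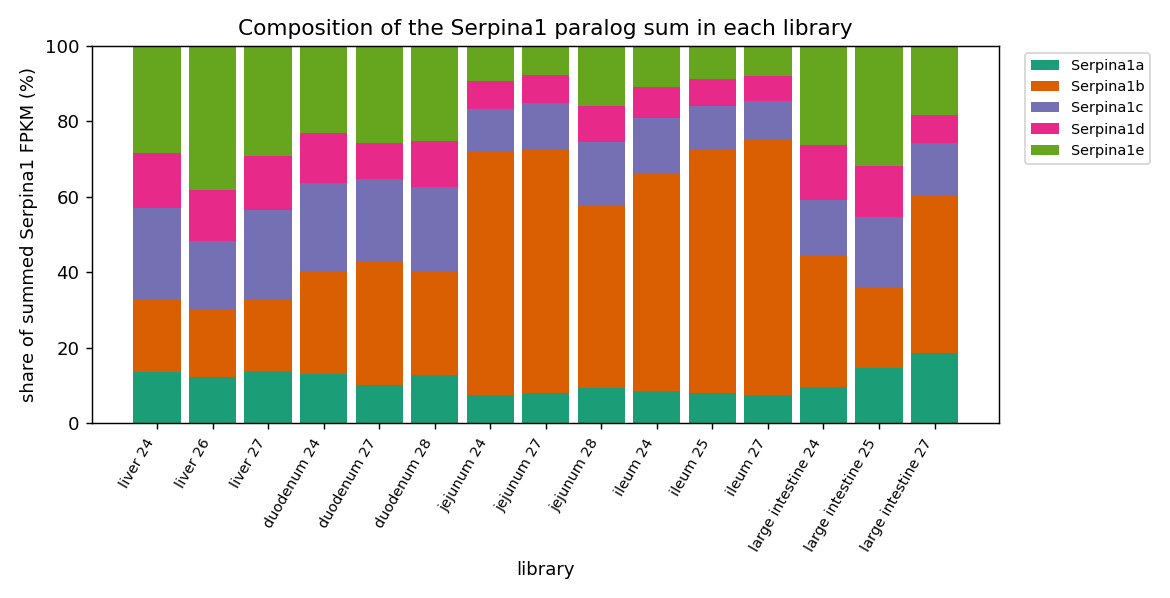
Each bar splits the summed FPKM of Serpina1a to Serpina1e in a library into percent shares of the 5 copies. Serpina1b takes 17.8% to 19.5% of the bar in liver and 48.1% to 68.0% in jejunum and ileum, although the sums behind the bars run from 34635 FPKM in liver 26 down to 0.207 FPKM in large intestine 27.

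The large intestine differed from the ileum in 7 serpin genes. Limma called 3 higher and 4 lower, where 8.29% of all genes were higher and 5.5% lower. With libraries rescaled to the same sum the split was 5 higher and 2 lower. The median log2 difference of the 32 genes was 0.02, against 0.14 for all genes. Across all 4 sections, an F test in limma called 7 members, where 20.9% of all genes were called: Serpina1b, Serpina3n, Serpinb1a, Serpinb5, Serpine2, Serpinf2 and Serpinh1. Of these, Serpinf2 lost its call without duodenum 24 (0.98), large intestine 24 (0.99) or the 3 libraries with high Alb (0.97). Serpinb1a lost it in 6 of 28 alternatives: without ileum 25 or large intestine 27 (0.92 each), with quantile normalization (0.85) and with the same-sum scaling (0.56), and, through its limma adjusted p, with log2(FPKM + 0.1) (0.125) and without the 3 libraries with high Alb (0.0697). Serpinh1 lost it without the 3 libraries with high Alb (0.74), with median-of-ratios scaling (0.87) and with a replicate block (0.99).

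Serpinb5 (maspin), a serpin of epithelial cells that does not inhibit proteases, had the largest difference among the 3 genes that were higher. It stood at 24.4, 30.5 and 23.7 FPKM in large intestine, and at 0.536, 1 and 2.02 in ileum 24, 25 and 27. In jejunum it stood at 1.39, 0.334 and 0.165 FPKM, in duodenum at 0.245, 0.162 and 0.648, and in liver it was listed at 0 in 2 libraries and at 0.0243 in liver 26. The large intestine libraries were above every other library, with a log2 difference from ileum of 3.68 (SE 0.27, limma adjusted p = 1.69e-07) and from liver of 4.75 (SE 0.27, limma adjusted p = 1.14e-09). The ileum was called higher than liver by 1.06, a call lost without ileum 27 (0.80) and with the other 3 scalings (0.77 to 0.996). None of 5 squamous epithelium markers reached 1 FPKM in large intestine, where their sum was 0.585 to 0.71. That sum was still above those of all other libraries, of which ileum 27 was the highest at 0.441. Krt14, the highest of these markers in large intestine, stood at 0.487, 0.505 and 0.424 FPKM there and at 0.0537, 0.061 and 0.149 in ileum. The part of such cells in the Serpinb5 difference was not tested.

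Serpine2 (protease nexin-1, an inhibitor of thrombin and plasminogen activators) stood at 6.65, 6.90 and 10.7 FPKM in large intestine and 2.14, 1.71 and 1.83 in ileum. It stood at 4.98, 4.58 and 5.20 FPKM in liver, 1.84, 1.99 and 1.74 in duodenum, and 3.48, 2.25 and 2.29 in jejunum. Large intestine was above all other libraries and liver was above all small intestine libraries. The log2 difference of large intestine from ileum was 1.63 (SE 0.16, limma adjusted p = 2.12e-06). Against liver it was lower in duodenum (-1.05) and ileum (-1.03), calls that lie at the threshold. The ileum call was lost without ileum 25 (-0.99) or liver 27 (-0.999) and the duodenum call with the same-sum scaling (-0.94) or without the 3 libraries with high Alb (-0.98), while the difference in large intestine (0.59) was under it.

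Serpina3n, an acute-phase member of the Serpina3 group, stood at 10.8, 9.02 and 9.65 FPKM in large intestine and 2.17, 3.81 and 3.61 in ileum. It stood at 107, 162 and 125 FPKM in liver, 2.82, 1.21 and 1.18 in duodenum, and 5.33, 2.14 and 2.18 in jejunum. Large intestine was above every small intestine library and below every liver library. The log2 difference from ileum was 1.39 (SE 0.29, limma adjusted p = 0.00159). The calls of Serpinb5, Serpine2 and Serpina3n between large intestine and ileum held in all 28 alternative analyses.

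Markers of stromal and muscle cells differed between the same sections. The 5 smooth muscle markers summed to 1639 to 2489 FPKM in large intestine and to 381 to 424 in ileum, with all 5 at 1 FPKM or more. The fibroblast markers summed to 238 to 325 against 140 to 157 FPKM, and the enteric neuron markers to 22.1 to 30.6 against 9.17 to 10.9. Colonocyte markers summed to 1482 to 3122 FPKM against 192 to 237. The part of any of these cell types in the 3 differences was not tested.

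The 4 genes that were lower in large intestine than in ileum were Serpina1b, Serpina1c, Serpina1a and Serpinb1a. Serpina1b had the largest difference of these, -3.61 (SE 0.77, limma adjusted p = 0.00254), which was -4.08 without the 3 libraries with high Alb. Serpina1c and Serpina1a differed by -1.63 (limma adjusted p = 0.0255) and -1.33 (limma adjusted p = 0.046). Both calls were lost without ileum 25, ileum 27, large intestine 24 or large intestine 27, with limma adjusted p of 0.0787 to 0.0999 for Serpina1c and 0.131 to 0.154 for Serpina1a. The Serpina1a call was also lost without any 1 liver library, duodenum 28 or jejunum 27 (limma adjusted p 0.055 to 0.0586), and with the same-sum scaling, a replicate block or only the libraries compared (limma adjusted p 0.0536 to 0.0691). Serpina1d (-1.25, limma adjusted p = 0.0506) missed the threshold narrowly. Serpinb1a differed by -1.03 (SE 0.24, limma adjusted p = 0.00301), and this call was lost without ileum 25 (-0.92), without large intestine 27 (-0.92), with quantile normalization (-0.85) and with the same-sum scaling (-0.56).

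**Figure D5:**
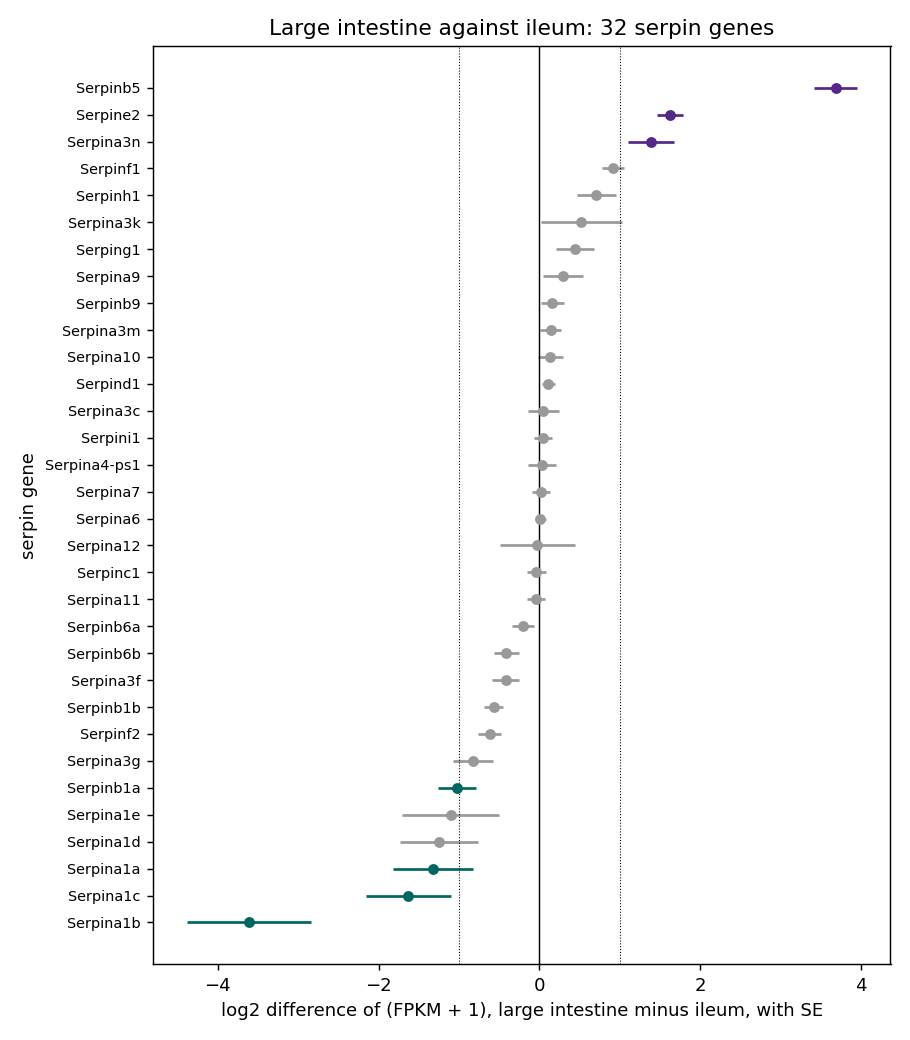
Points show the log2 difference of (FPKM + 1), large intestine minus ileum, for 32 serpin genes, with bars of 1 SE and dotted lines at the threshold for size. Coloured points passed the test: Serpinb5 at 3.68, Serpine2 at 1.63 and Serpina3n at 1.39 on the higher side, and Serpina1b at -3.61 on the lower side.

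Lists of gut wall and leukocyte proteases were compared between the same sections. Among all genes, 8.29% were higher and 5.5% lower in large intestine than in ileum. Of 11 pancreatic and epithelial serine proteases, 6 were higher and 0 lower. Klk1 (tissue kallikrein), the most abundant, stood at 1302 ± 72.1 FPKM (SD, n = 3) in large intestine and 114 ± 34.5 in ileum, and Prss32 at 365 ± 15.3 and 143 ± 40.6. The largest difference of the list was that of Cela1 (4.62, SE 0.58, limma adjusted p = 5.11e-05). Of 4 tested leukocyte and mast cell proteases, Gzma and Gzmb, the granzymes of cytotoxic lymphocytes, were lower. Gzma stood at 0.157 ± 0.0528 FPKM in large intestine and 25.1 ± 10.5 in ileum, and was higher in the 3 small intestine sections than in liver (5.77, 4.10 and 4.09). The T and NK cell markers, which include Gzmb, summed to 16.0 to 31.7 FPKM in ileum and 2.18 to 4.69 in large intestine. Of 12 cathepsins, Ctsl and Ctsf were higher in large intestine than in ileum. Against liver, 3, 3, 3 and 2 cathepsins were higher and 3, 3, 3 and 2 lower in the 4 sections. Ctsl was lower in all 4 sections (-1.79 to -3.39). Among all genes, 30.6% to 41.8% were higher and 8.94% to 9.24% lower than in liver.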

How the data were processed

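RNA of 15 tissue samples was sequenced, and the deposited table gives FPKM per gene for each library, made by the authors with CASAVA, FastQC, TopHat2 2.0.3, Bowtie 0.12.8, SAMtools 0.1.18 and Cufflinks 2.0.0 on mm10, per the submitters' processing notes. FPKM are not counts and no read counts were used. From the steps of low values, the depth of a library was estimated at 33600000 to 76000000 fragments, with 67.5% to 82.0% of low values within 0.1 fragment of a whole number, where chance gives 20%. At that depth 1 fragment in a gene of 2 kb is worth 0.0066 to 0.015 FPKM.

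Rows sharing a symbol were summed, and genes with 1 FPKM or more in 3 or more libraries were kept. All 5 tissues entered 1 limma fit (limma 3.58.1, R 4.3.3, statmod 1.5.0) of log2(FPKM + 1), a scale that understates the change of low genes. Calls needed a Benjamini-Hochberg adjusted p under 0.05 over all 13757 genes and a log2 difference of 1 or more. The fit was tested on simulated data. Values, sequences and figures were prepared with Python 3.11.15, pandas 2.3.3, numpy 2.4.6, scipy 1.17.1, Biopython 1.88 and matplotlib 3.10.9. The serpin genes and the protease, inhibitor, collagen and marker lists were chosen with earlier results of these data known. Every member of the family is named or counted, and from each list the text names at most the 2 genes with the highest mean level and the called gene with the largest difference. Plat, Lrp1, Col1a1, Ctsf and Fabp6 fall outside this rule and were named after their values were seen. Alternatives were another pseudocount, filters, 3 other scalings, a replicate block, other variance models and leaving out libraries. Protein sequences were not used here. One gene that failed the filter is not reported here.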

Additional observations from a re-analysis of the deposited data

How the results depend on the processing

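Of 124 called differences of single serpin genes, 108 kept their call in all 28 alternatives, 16 lost it in at least 1 and 0 changed sign, while 21 uncalled differences gained a call in at least 1. Between large intestine and ileum 7 serpin genes were called, against 12 with log2(FPKM + 0.1) (4 higher, 8 lower), a setting that called 2683 of all genes against 1898, and 4 to 9 when libraries were left out singly, with 4 without ileum 25 and 4 without large intestine 27. Between jejunum and duodenum the count of 0 became 1 with log2(FPKM + 0.1), which was Serpina3c, and 0 to 1 when libraries were left out singly, with Serpina3k called without duodenum 27 (-1.73). Between ileum and jejunum 1 gene, Serpina1b, was called without jejunum 24 and ileum 24, where 198 of all genes were called against 0. The causes were not tested. Samples with the same number in their titles did not deviate together as a set, so the numbers were not taken as pairs. The correlation over 22 such pairs ran from -0.489 (jejunum 24 and ileum 24) to 0.164, with 4 over 0.1. Its median was 0.001, against -0.004 over 68 other pairs. With deviations from means of 3 libraries and labels in doubt, this cannot show whether a number marks the same animal. With a replicate block the counts were 27, 26, 27 and 25 against liver, 0, 0 and 6 between neighbouring sections and 6 in the F test. The analysis without duodenum 24, duodenum 28 and large intestine 25 was chosen after seeing the data. Jejunum 24 and ileum 24 were likewise singled out by values of these data.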
